A study of Mus musculus with 3 samples.

Results

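The amino acid transporter genes are the 42 genes, of 17551 in the deposited table, whose symbol begins with Slc1a, Slc3a, Slc6a, Slc7a, Slc36a, Slc38a or Slc43a followed by a digit and that had a value above 0 in at least 20 cells, Slc7a11 left out. The 7 families had 50 genes with a row, and 7 were left out for too few cells. The genes just inside the limit were Slc7a14 and Slc1a7, each above 0 in 28 cells, and the nearest outside it were Slc6a20b with 16 and Slc43a1 with 14. Of the 42 genes, 40 code for members of the carrier families and 2, Slc7a6os and Slc36a3os, match the rule by symbol only, since they are genes on the strand opposite to a carrier gene. Slc6a20a has a near-identical paralog, Slc6a20b, so its counts are uncertain where reads could be split.

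The study sequenced 3 libraries (cDNA, antibody tags and hashtags) made from 1 pool of cells of 4 brains; before pooling, each brain had received a hashtag antibody of its own. The brains came from female C57BL/6 mice of 2 to 3 months, some naive and some bearing metastases of E0771 cells, a mouse mammary carcinoma line, about 2 weeks after injection into the carotid artery. The suspensions were enriched for immune cells on a Percoll gradient and stained with 6 antibodies. The sources used here do not tie a hashtag to a condition, so values are given by hashtag brain, and naive and metastatic brains were not compared.

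Amino acid carriers are membrane proteins that move amino acids, and in some families neurotransmitters, taurine or creatine, into or out of cells and lysosomes. The Slc7 light chains for large neutral amino acids work only when paired with the glycoprotein heavy chain Slc3a2 (CD98), while most Slc38, Slc6 and Slc1 carriers use the sodium gradient. In the brain, capillary endothelium forms the blood-brain barrier, the epithelium of the choroid plexus forms the barrier between blood and cerebrospinal fluid, and astrocytes clear glutamate and GABA around synapses.

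The table held 4668 cells with 2495 to 43038 UMIs each (a UMI, or unique molecular identifier, tags a single captured RNA molecule). The brains with hashtags 1, 2, 3 and 4 gave 844, 410, 1385 and 2029 cells, with medians of 4371, 5600, 12450 and 12806 UMIs per cell, and shared 0 barcodes. In the median cell 78.4%, 74.1%, 89.0% and 94.2% of hashtag counts were from the brain's own hashtag. The authors' 11 clusters carry numbers only. By markers, cluster 1 was choroid plexus-like (Ttr, Kcnj13, Kl, Enpp2), cluster 4 endothelial-like (Cldn5, Flt1, Ly6c1, Itm2a) and cluster 9 smooth muscle-like (Acta2, Tagln, Myh11). Clusters 0, 2 and 7 held the homeobox gene Rhox5 at 4.68, 4.88 and 4.81 per 10000 UMIs as means over cells, against 0.730 in cluster 1. They are called Rhox5-led without a cell type name. By brain, Rhox5 in cluster 2 was 1.34, 1.63, 5.35 and 5.08 with hashtags 1 to 4. In cluster 0 it was 2.80, 5.09 and 4.60 with hashtags 1, 3 and 4. By fold, immunoglobulin genes (Iglc1, Igkc) led cluster 2. Csf2 and haemoglobin genes led cluster 10. Its haemoglobin gene Hba-a1 was only 0.885 and 0.476 per 10000 UMIs with hashtags 3 and 4. These brains gave 40 and 68 of the 117 cells of cluster 10. Its high Hba-a1 thus came from the 8 and 1 cells with hashtags 1 and 2. Cluster 10 held Rhox5 at 4.11 and was not pooled with clusters 0, 2 and 7. Of their 6 mammary carcinoma markers, Krt8 had 2.84, 2.75 and 2.80 per 10000 UMIs, against 0.820 in cluster 1, while Krt18 had 0.10, 0.151 and 0.143, against 1.42, and the other 4 were near 0. Clusters 3 (Ctss, C1qa, Ms4a7) and 6 (Camp, Ngp, S100a8) carried the CD45 tag. Ttr was found in every cluster, from 114 per 10000 UMIs in cluster 10 to 3167 in cluster 1.

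Levels are UMIs per 10000 UMIs of a cell. They were averaged within each brain and cluster (at least 20 cells), and then across brains. Each molecule is counted once at its 3' end, so levels of different genes were compared without dividing by gene length. The cluster column bears the name of a Seurat clustering of gene values, so levels in clusters are described without a test.

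Promoter windows of genes described below are shown first. With levels averaged over all cells of a brain, these genes were highest in clusters 4 (Slc38a5 and Slc3a2), 5 (Slc7a10), 1 (Slc6a20a) and 3 (Slc7a7). Each window runs from 250 bases before to 50 bases after a RefSeq start site, on the gene's strand, build GRCm38.p6, and capitals mark the motifs searched. They belong to Slc38a5 at chrX:8271131-8271430, plus strand, Slc7a10 at chr7:35186135-35186434, plus strand, Slc6a20a at chr9:123678783-123679082, minus strand, Slc7a7 at chr14:54417895-54418194, minus strand, and Slc3a2 at chr19:8713848-8714147, minus strand.
Slc38a5: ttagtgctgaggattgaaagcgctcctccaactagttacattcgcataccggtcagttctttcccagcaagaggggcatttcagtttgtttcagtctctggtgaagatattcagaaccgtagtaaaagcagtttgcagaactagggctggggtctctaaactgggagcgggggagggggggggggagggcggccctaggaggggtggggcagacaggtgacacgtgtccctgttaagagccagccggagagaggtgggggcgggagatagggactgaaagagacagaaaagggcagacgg
Slc7a10: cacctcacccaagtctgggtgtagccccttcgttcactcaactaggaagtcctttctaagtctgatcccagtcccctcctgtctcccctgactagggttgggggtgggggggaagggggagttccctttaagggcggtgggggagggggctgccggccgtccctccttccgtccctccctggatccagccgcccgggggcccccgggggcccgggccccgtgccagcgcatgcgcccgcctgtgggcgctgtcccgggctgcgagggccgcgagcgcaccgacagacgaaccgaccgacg
Slc6a20a: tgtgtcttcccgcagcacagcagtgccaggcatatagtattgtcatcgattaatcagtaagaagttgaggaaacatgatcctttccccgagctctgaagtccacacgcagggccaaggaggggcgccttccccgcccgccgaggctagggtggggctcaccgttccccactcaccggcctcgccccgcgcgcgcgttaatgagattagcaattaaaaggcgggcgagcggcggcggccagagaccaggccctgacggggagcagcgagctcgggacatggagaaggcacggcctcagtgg
Slc7a7: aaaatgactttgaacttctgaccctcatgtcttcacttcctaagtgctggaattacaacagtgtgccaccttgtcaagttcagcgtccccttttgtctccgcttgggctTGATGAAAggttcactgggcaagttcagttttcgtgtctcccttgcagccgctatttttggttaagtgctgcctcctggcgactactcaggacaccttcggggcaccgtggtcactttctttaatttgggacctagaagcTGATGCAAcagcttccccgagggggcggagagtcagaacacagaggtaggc
Slc3a2: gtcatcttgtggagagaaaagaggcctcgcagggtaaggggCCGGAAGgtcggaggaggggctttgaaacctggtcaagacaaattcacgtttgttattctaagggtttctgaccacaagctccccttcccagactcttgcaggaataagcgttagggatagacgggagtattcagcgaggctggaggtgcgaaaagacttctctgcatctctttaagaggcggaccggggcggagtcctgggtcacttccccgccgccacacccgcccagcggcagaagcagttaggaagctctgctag

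RefSeq windows, 42 in all, were matched for 30 of the 42 genes, some of which had more than 1. Counts below are of genes with a motif in any of their windows, while percentages are of single windows. Motifs were searched on both strands, and CTTTGAT and TGATGNAA can share letters. TGATGNAA, the C/EBP-ATF response element through which Atf4 acts in amino acid shortage, was in the windows of 2 of these genes, Slc1a4 and Slc7a7, against 3.97% of 32851 mouse windows. The Slc7a7 window above holds it at positions -141 and -1 from the start site. CCGGAAG, an Ets motif, was in the windows of 6 genes, among them Slc3a2 at position -209, against 8.86% of all windows. CTTTGAT, a Tcf/Lef motif, was in those of 4 genes, among them Slc1a2 and Slc7a1, against 3.73%. GGATTA, an Otx motif, was in that of 1 gene, Slc6a13, against 7.06%, and TGTTTAC, a Fox motif, in 0, against 3.65%. The windows of Slc38a5, Slc7a10 and Slc6a20a held 0 of the 5 motifs. A match is a run of letters and not a measured binding site.

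In 14 of the 42 genes, the highest cluster level was at least 4 times the median cluster and rested on at least 20 UMIs, against 14.8% of all 14044 genes seen in at least 20 cells. Of the 14 genes, 4 had their highest level in the endothelial-like cluster 4 (Slc38a5, Slc6a6, Slc7a5 and Slc1a1) and 4 in cluster 8 (among them Slc1a2, Slc1a3 and Slc6a11). Another 2 were highest in the choroid plexus-like cluster 1 (Slc6a15 and Slc6a20a), 2 in cluster 5 (Slc7a10 and Slc6a17) and 2 in the CD45-tagged cluster 3 (Slc7a7 and Slc36a3os). Cluster 5 is unnamed, had a median of 14.8% mitochondrial UMIs, and held Ttr at 1593 per 10000 UMIs. When only cells with at least 80% of hashtag counts from their own hashtag were used, the minimum was 10 cells per brain and cluster. Then 17 genes met the same limit, and Slc7a5 and Slc36a3os did not. In those cells Slc7a10 (0.904, against 0.863 in cluster 5) and Slc6a17 (0.206) were highest in cluster 1.

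**Figure D1:**
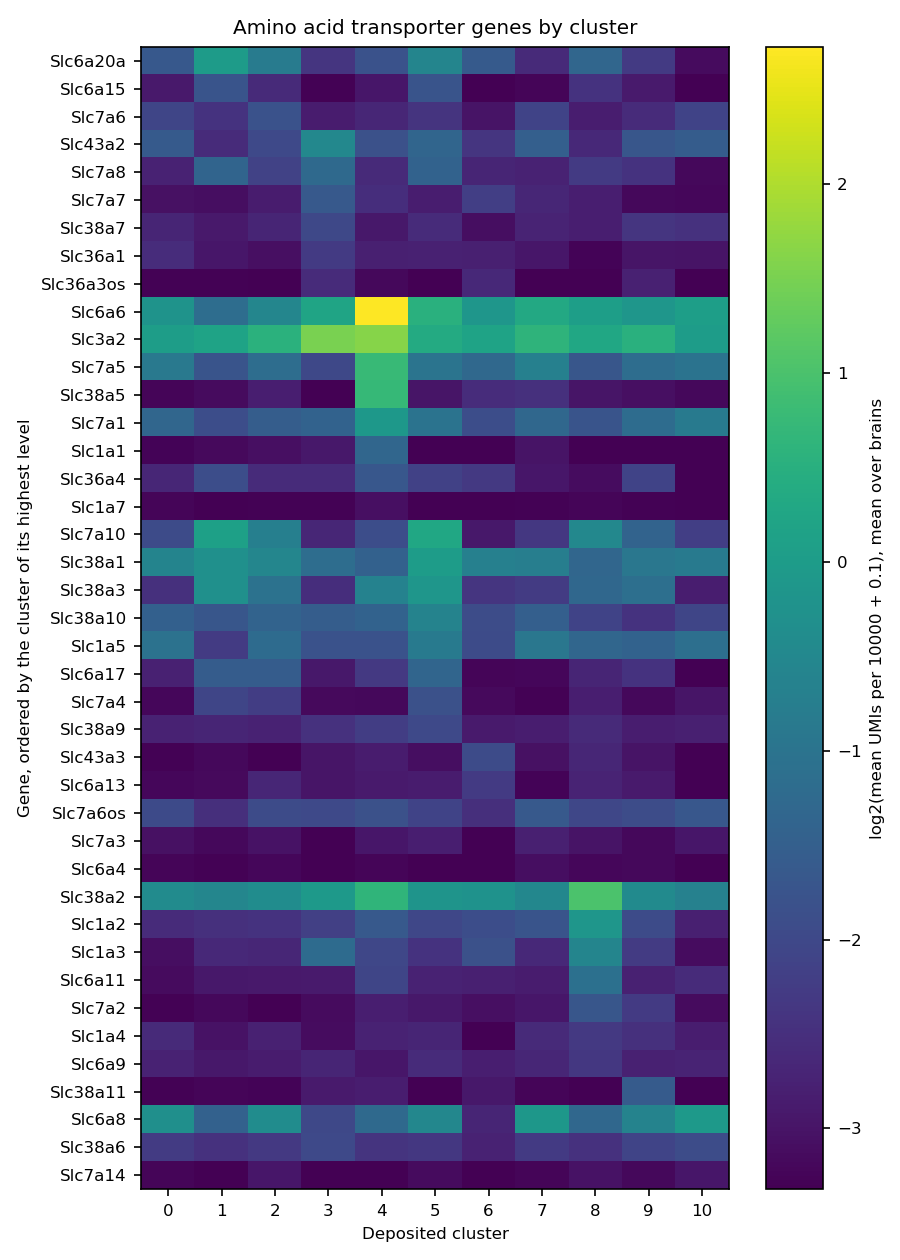
Level of 41 of the 42 genes (rows) in the 11 deposited clusters (columns), as log2 of the mean UMIs per 10000 plus 0.1, averaged over brains with at least 20 cells. Slc6a6 and Slc38a5 stand out in cluster 4, Slc1a2 in cluster 8, and Slc3a2 is present in every cluster with its highest levels in clusters 4 and 3.

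Slc38a5, a carrier of glutamine and other small neutral amino acids, had 3.23, 0.772, 0.736 and 1.55 per 10000 UMIs in endothelial-like cells, in the order of hashtags 1 to 4, an order kept below. The choroid plexus-like cells held 0.0147, 0.0065, 0.0139 and 0.0158. All endothelial-like values lay above those of every other cluster, of which cluster 7 was the next with 0.0802. Of 298 UMIs of the gene in the whole table, 219 came from cluster 4.

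Slc6a6, the taurine transporter, reached 9.97, 10.5, 3.40 and 2.20 per 10000 UMIs in endothelial-like cells of the 4 brains, the highest cluster mean among the 42 genes (6.53 ± 4.34, SD, n = 4). The brains with hashtags 1 and 2 stood well above the others. Median depth of these cells was 3256, 3088, 4015 and 8892 UMIs, and their 7 endothelial markers summed to 93.9, 92.6, 80.9 and 47.7 per 10000 UMIs; the part of depth or of cell make-up in the Slc6a6 values was not tested.

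Slc7a5, the light chain that carries large neutral amino acids such as leucine and phenylalanine, had 1.67, 1.57, 2.08 and 1.0 per 10000 UMIs in endothelial-like cells, against 0.116, 0.163, 0.246 and 0.270 in choroid plexus-like cells. Its heavy chain Slc3a2 had 3.09, 2.97, 3.19 and 2.75 in the first and 0.863, 1.17, 1.21 and 0.938 in the second. For both genes the 2 cell groups did not overlap. Slc7a1, a carrier of arginine and lysine, had 1.04, 0.651, 0.714 and 0.934 in endothelial-like cells and 0.192, 0.169, 0.114 and 0.207 in choroid plexus-like cells. Slc1a1, a glutamate carrier, was a low gene with 44 UMIs in cluster 4. Its endothelial-like levels of 0.211, 0.124, 0.702 and 0.165 were above all choroid plexus-like values, of which the highest was 0.0254.

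Slc7a10, which carries glycine, alanine and D-serine, had 1.18, 1.08, 0.797 and 0.898 per 10000 UMIs in choroid plexus-like cells and 0.101, 0.201, 0.147 and 0.223 in endothelial-like cells. Slc6a20a, a carrier of proline and related imino acids, had 0.861, 0.597, 1.62 and 0.508 in the first group and 0.321, 0.0832, 0.288 and 0.0652 in the second. In both genes every choroid plexus-like value was above every endothelial-like one, and Slc6a20a was highest in the brain with hashtag 3. Slc7a8, a light chain for neutral amino acids, had 0.335, 0.332, 0.229 and 0.250 in choroid plexus-like and 0.107, 0.0827, 0.0694 and 0 in endothelial-like cells. Slc6a15, a carrier of branched-chain amino acids and proline, had 0.243, 0.214, 0.155 and 0.183 in choroid plexus-like cells. In endothelial-like cells it had 0.0896, 0, 0.0300 and 0, from a depth at which single UMIs decide the value. Slc38a3, a glutamine carrier, was present at both barriers, with 0.753, 0.873, 0.574 and 0.683 in choroid plexus-like and 0.560, 0.638, 0.360 and 0.621 in endothelial-like cells, values that overlapped.

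Over all 42 genes, 13 differed between the choroid plexus-like and the endothelial-like cluster by at least 1 in the mean log2 difference with no overlap over the 4 brains, which is 31.0%, against 13.2% of all genes. Differences were taken within a brain on the log2(mean + 0.1) scale. The 6 genes higher in choroid plexus-like cells, against 4.05% of all genes, were Slc7a10 (2.03), Slc6a20a (1.79), Slc7a8 (1.27), Slc6a15 (1.24), Slc38a1 (1.17) and Slc7a4 (1.16). The 7 higher in endothelial-like cells, against 9.1% of all genes, were Slc38a5 (-3.65), Slc6a6 (-3.62), Slc7a5 (-2.48), Slc7a1 (-1.78), Slc1a1 (-1.66), Slc3a2 (-1.45) and the glutamine and alanine carrier Slc38a2 (-1.17). The median difference of the 42 genes was -0.24, against -0.14 for all genes. With a pseudocount of 1, which shrinks the differences of low genes, 3 of the 13 were still called (Slc38a5, Slc6a6 and Slc7a5). Slc38a1 was no longer called without the brain with hashtag 2 or with UMIs summed over cells. Slc38a2 was not called with summed UMIs, and neither it nor Slc1a1 was in the cells with at least 80% of own hashtag counts.

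**Figure D2:**
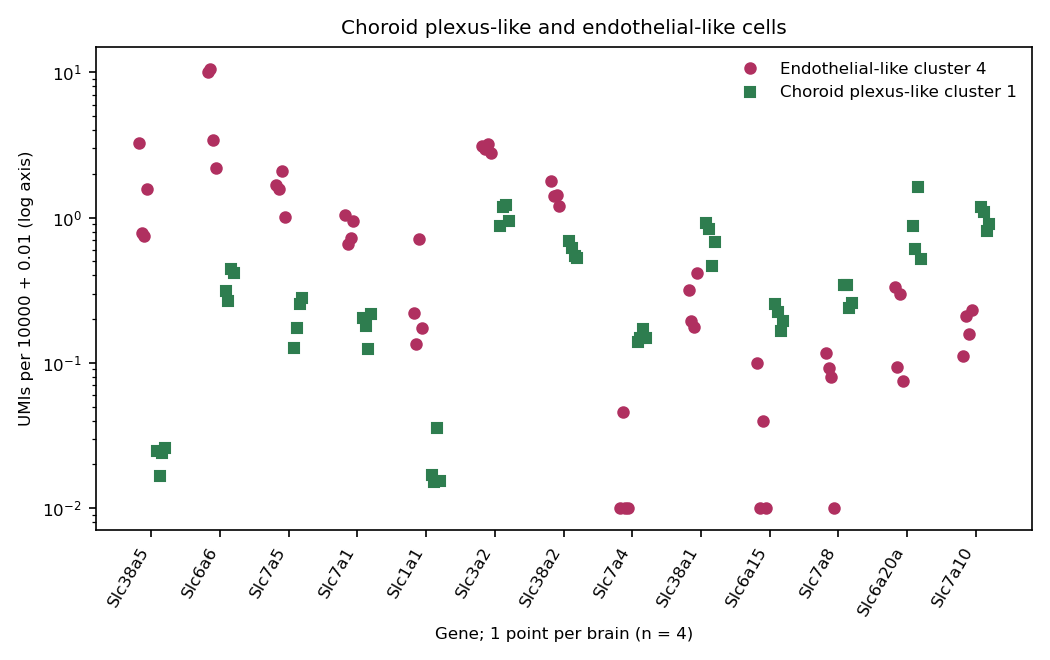
Levels of the 13 called genes in endothelial-like cells (circles) and choroid plexus-like cells (squares), 1 point per brain (n = 4), as UMIs per 10000 plus 0.01 on a log axis. For each gene the points of the 2 groups do not overlap; the widest gaps are those of Slc38a5 and Slc6a6.

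The endothelial-like cells also differed from the smooth muscle-like cluster 9 in 3 brains with enough cells of both (hashtags 1, 3 and 4). In that comparison 7 of the 42 genes were called, against 5.45% of all genes: 7 were higher in endothelial-like cells, against 4.34%, and 0 lower, against 1.12%. Slc38a5 in smooth muscle-like cells was 0, 0.0166 and 0.0398 per 10000 UMIs (difference 3.82), and Slc6a6 was 0.557, 0.799 and 1.07 (difference 2.29, or 1.47 without the brain with hashtag 1). Slc7a5 was 0.132, 0.443 and 0.457 there (difference 1.97), and every endothelial-like value of the 3 genes was higher. Slc1a1 had 0 UMIs in cluster 9; against a limit of 3 UMIs over that cluster its summed endothelial-like level was at least 11.98-fold higher. Slc7a1 (1.17), Slc3a2 (1.14) and Slc38a2 (1.07) made up the 7. Slc38a2 was not called without the brain with hashtag 1, Slc3a2 not without that with hashtag 3, and neither Slc7a1 nor Slc38a2 with summed UMIs. With a pseudocount of 1, Slc38a5 and Slc6a6 alone were called. In cluster 9 Rhox5 was 0.679, 3.55 and 3.26 per 10000 UMIs with hashtags 1, 3 and 4, against 0.960, 1.26 and 2.27 in cluster 4. Median depth in cluster 9 was 4091, 13316 and 12657 UMIs. Its 7 smooth muscle and pericyte markers summed to 47.6, 47.8 and 32.1 per 10000 UMIs. The part of these Rhox5 levels, or of depth, in the 7 calls was not tested.
Slc38a11, a less studied member of the Slc38 family, had its highest level in cluster 9, from 19 UMIs: 0.582, 0.0217 and 0.103 in the same 3 brains, the first well above the others.

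Cluster 8 is unnamed: fibroblast genes (Dcn, Mgp) and astrocyte genes (Aldoc, Gpr37l1, S100b) led it together, and it held Ttr at 2109 per 10000 UMIs. Its 3 brains with enough cells (hashtags 1, 3 and 4) had 0.888, 0.341 and 1.17 per 10000 UMIs of Slc1a2, the main glutamate carrier of astrocytes. Slc1a3, a glutamate carrier of glia, had 0.797, 0.219 and 0.715 there. The GABA carrier Slc6a11 had 0.275, 0.259 and 0.580. The brain with hashtag 3 was the lowest for Slc1a2 and Slc1a3.

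Divided by marker UMIs, a step chosen after the data were seen, 62 cells of cluster 8 had more UMIs of the 4 astrocyte than of the 5 fibroblast markers, 38 had more of the fibroblast markers and 85 had equal numbers. Slc1a2 had 90 UMIs in the 62 cells, a summed level of 1.87 per 10000 UMIs (95% exact Poisson interval 1.51 to 2.3), and 2 UMIs in the 38 cells, 0.109 (0.0132 to 0.394). Slc6a11 had 0.603 (0.404 to 0.866) in the former and 0 UMIs in the latter, where 3 UMIs would give 0.164. Against that limit of 3 UMIs, its level in the 62 cells was at least 3.69-fold higher. Slc7a10 followed the same order, with 0.894 (0.647 to 1.20) against 0.109 (0.0132 to 0.394). Slc38a2 ran the other way, with 1.12 (0.844 to 1.47) in the 62 cells and 3.16 (2.40 to 4.09) in the 38. Of the 58 Slc38a2 UMIs in the 38 cells, 30 came from the brain with hashtag 3. Intervals cover counting error only.

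**Figure D3:**
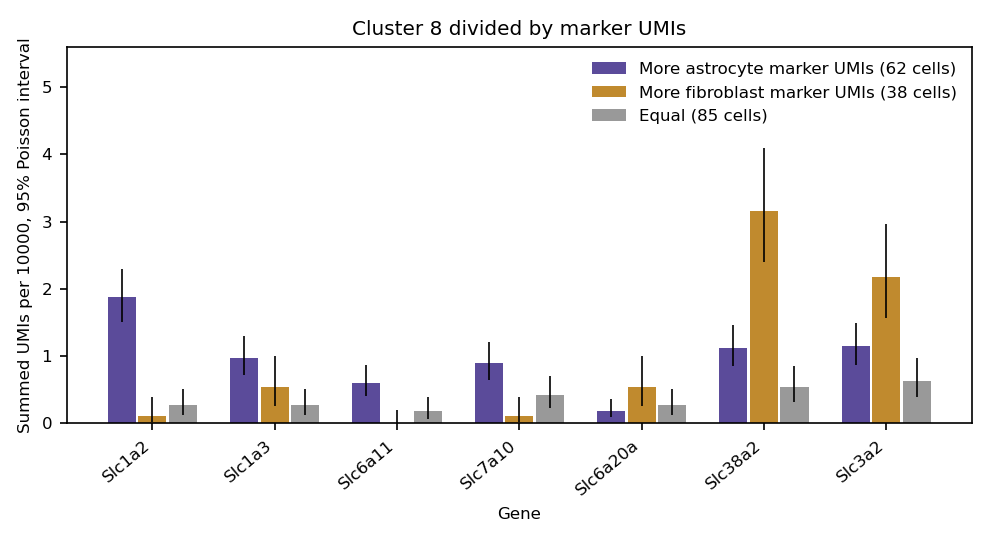
Summed UMIs per 10000 of 7 genes in the cells of cluster 8 with more astrocyte marker UMIs (62), more fibroblast marker UMIs (38) or equal numbers (85); bars are levels and lines the 95% Poisson interval. Slc1a2, Slc6a11 and Slc7a10 are higher in the first group, and Slc38a2 and Slc3a2 in the second. The intervals of these 2 groups overlap for Slc1a3 and Slc6a20a.

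The Rhox5-led clusters 0, 2 and 7, pooled, held the creatine transporter Slc6a8 at 0.419, 0.441, 0.813 and 0.884 per 10000 UMIs in the brains with hashtags 1 to 4. The choroid plexus-like cells held 0.263, 0.237, 0.246 and 0.327 of it, with no overlap. Slc1a5, a carrier of glutamine, serine and alanine, had 0.294, 0.261, 0.482 and 0.371, against 0.0918, 0.0744, 0.158 and 0.102. Slc6a6 had 0.802, 0.897, 0.989 and 0.778, against 0.302, 0.255, 0.433 and 0.403, again without overlap. Against cluster 1, 6 of the 42 genes were called, against 7.15% of all genes. Of these, 2 were higher (Slc6a6, 1.12, and Slc1a5, 1.12), against 4.94% of all genes, so near that share. Neither was called with UMIs summed over cells, and Slc6a6 was not in the cells with 80% of own hashtag counts. Levels are shares of a cell's UMIs, and in cluster 1 the 8 choroid plexus markers summed to 3348, 3357, 3509 and 3119 per 10000 UMIs. The part of these markers in any difference from cluster 1 was not tested. Slc6a8 did not reach the size of 1 in the mean difference, and did so without the brain with hashtag 1 or with hashtag 2.

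The 4 genes called lower, against 2.21% of all genes, were Slc7a10 (-1.64), Slc38a3 (-1.50), Slc7a8 (-1.09) and Slc6a15 (-1.02). The Rhox5-led values of these genes split the brains, which were unequal in cell number and depth. Clusters 0, 2 and 7 had 44, 41 and 9 cells with hashtag 1 and 14, 24 and 6 with hashtag 2. With hashtag 3 they had 424, 285 and 76, and with hashtag 4 704, 428 and 121. Median depth in cluster 0 was 8173, 4998, 13602.5 and 12915.5 UMIs in the 4 brains. The part of cell number or depth in these values was not tested. Slc7a10 had 0.514 and 0.792 in the brains with hashtags 1 and 2 but 0.0603 and 0.0658 in those with hashtags 3 and 4. Slc38a3 had 0.349 and 0.565 against 0.0392 and 0.0634, Slc7a8 0.171 and 0.170 against 0.0209 and 0.0203, and Slc6a15 0.125 and 0.0774 against 0.00815 and 0.00546. The 8 choroid plexus markers moved with them in the same cells, summing to 1614, 1856, 185 and 159 per 10000 UMIs in the 4 brains; their part in these values was not tested. Without the brain with hashtag 3, or without that with hashtag 4, Slc6a15 and Slc7a8 were not called, and in the cells with 80% of own hashtag counts Slc6a15 and Slc38a3 were not. With a pseudocount of 1, 0 of the 6 genes were called.

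Per 1000 UMIs of Ttr, Slc7a10 had 0.305 UMIs in the choroid plexus-like cluster, 0.314 in cluster 0, 0.304 in cluster 4 and 0.267 in cluster 6. These ratios in clusters 0, 4 and 6 were near that of cluster 1, but no interval was computed for them. Clusters 4 and 6 held 65879 and 26171 Ttr UMIs, against 2129530 in cluster 1, so their ratios rest on few Slc7a10 UMIs. The ratio was higher in the other Rhox5-led clusters, with 0.507 in cluster 2 and 0.582 in cluster 7. It was also higher in clusters 5, 8 and 9, with 0.696, 0.412 and 0.430. The cause of these ratios was not tested. Over all 11 clusters the ratio ran from 0.243 in cluster 3 to 1.14 in cluster 10. Slc6a20a had 0.292 in cluster 1 and ran from 0.127 in cluster 10 to 0.573 in cluster 6. Cluster 10 held 7903 Ttr UMIs, so both of its ratios rest on very few UMIs of the carrier gene. Slc38a3 had 0.222 in cluster 1 and 1.12 in cluster 4, with 0.196 to 0.497 in the others. Slc7a8 had 0.0930 in cluster 1 and 1.43 in cluster 3, with 0.0489 to 0.344 in the others.

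**Figure D4:**
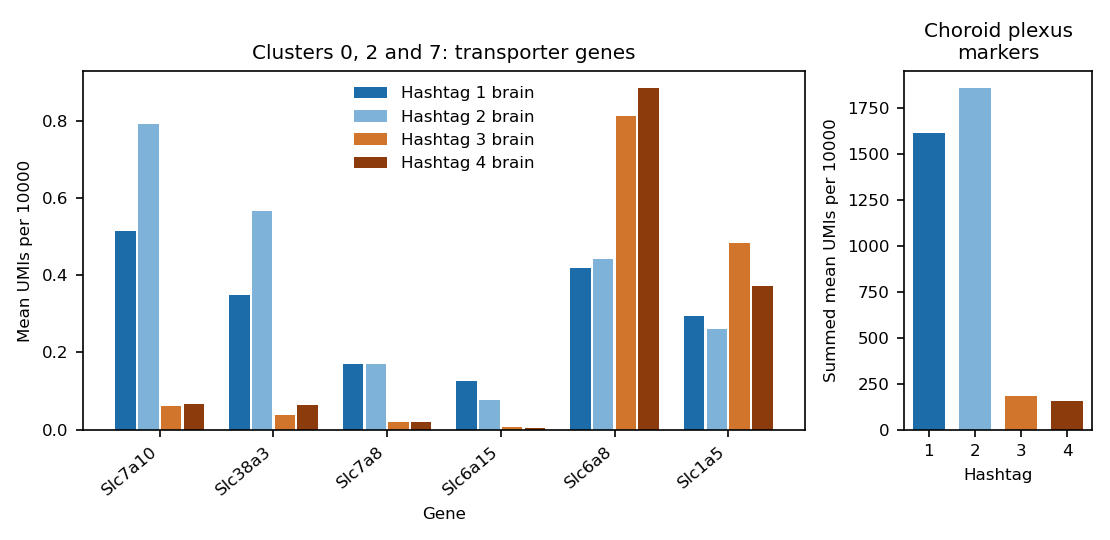
Left, mean UMIs per 10000 of 6 genes in the pooled Rhox5-led clusters of each hashtag brain (bars, 1 brain each); right, the summed level of 8 choroid plexus markers in the same cells. Slc7a10, Slc38a3, Slc7a8 and Slc6a15 and the markers are higher with hashtags 1 and 2, while Slc6a8 and Slc1a5 are higher with hashtags 3 and 4.

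Among the CD45-tagged clusters, cluster 3 held the second highest level of the heavy chain Slc3a2, with 1.5, 3.52, 3.37 and 2.54 per 10000 UMIs. It was the highest with UMIs summed over cells (2.77, against 2.52 in cluster 4). The same held in cells with 80% of own hashtag counts (3.44 against 3.39). Slc43a2, a carrier of leucine and other large neutral amino acids that needs no heavy chain, had 0.456, 0.349, 1.21 and 0.407 in cluster 3, the brain with hashtag 3 standing above the rest. Slc7a7, a light chain that exports arginine and lysine, had 0.115, 0.319, 0.178 and 0.281, and Slc7a8 had 0.107, 0.384, 0.345 and 0.431. The brain with hashtag 1 had 21 cells of this cluster, so its Slc7a7 and Slc7a8 values rest on 1 UMI each. Slc36a3os had 0, 0, 0.121 and 0.153 from 23 UMIs. Slc43a3, a carrier of purine bases, was highest in cluster 6, with 0.232 and 0.0862 in the brains with hashtags 1 and 3, from 19 UMIs.

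In the brain with hashtag 1, clusters 3 and 6 gave 21 and 171 cells, while cluster 3 gave most of these cells in the other brains (34, 155 and 194, against 9, 26 and 17 of cluster 6). Clusters 3 and 6 together, against the Rhox5-led clusters, gave 3 called genes, or 7.14%, against 9.33% of all genes. Of the 3, 2 were higher, against 6.4%, and 1 lower, against 2.93%. These counts were near the shares of all genes and not above them. Slc1a3 had 0.324, 0.177, 0.334 and 0.190 per 10000 UMIs, against 0.0275, 0.0838, 0.0323 and 0.0262 (difference 1.31). Slc7a7 had 0.0871, 0.252, 0.174 and 0.258, against 0.0312, 0, 0.0383 and 0.0344 (difference 1.18), and was not called without the brain with hashtag 2. Slc6a8 was the lower one, with 0.0962, 0.148, 0.139 and 0.228 (difference -1.51). Neither Slc7a7 nor Slc6a8 was called in the cells with 80% of own hashtag counts. Without the brain with hashtag 1, Slc7a8 and Slc3a2 were called higher too, and with a pseudocount of 1 0 of the 3 genes were called.

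Cluster 5, with its high mitochondrial share, held choroid plexus genes at uneven levels. Slc7a10 had 2.18, 1.08, 0.276 and 0.923 per 10000 UMIs there, and Slc6a17, which carries neutral amino acids into synaptic vesicles, had 0.464, 0.480, 0.126 and 0.10. Slc6a17 in cluster 1 was 0.264, 0.280, 0.161 and 0.247, which overlapped. Ttr in cluster 5 was 2416, 2589, 1187 and 874 per 10000 UMIs, also higher with hashtags 1 and 2; its part in these values was not tested.

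Slc3a2 was found in every cluster, between 0.913 and 3.00 per 10000 UMIs. Over the 11 cluster means its Pearson correlation, on the log2(mean + 0.1) scale, was 0.65 with Slc7a7, 0.36 with Slc7a5, 0.28 with Slc7a8, -0.27 with Slc7a10 and -0.33 with Slc7a6. These values describe clusters that share libraries and brains and have no p-value. Slc7a6, a light chain for cationic and neutral amino acids, was highest in cluster 2, with 0.10, 0.397, 0.128 and 0.121, of which the hashtag 2 value rests on 5 UMIs.

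The CD45 antibody tag measures the surface protein CD45, carried by white blood cells, and was not used in choosing the genes. Its barcode oligo, in which capitals mark the whole barcode, is shown because the test below rests on its counts.
CD45 tag: TGGCTATGGAGCAGA

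Cells with at least 300 CD45 tag counts (911, high) were compared with the others (3757, low) within each of the 4 brains. Of the high cells, 606 were in clusters 3 and 6 and 305 in other clusters. The low cells were made up differently from brain to brain: clusters 0, 2 and 7 gave 12.7%, 9.25%, 65.7% and 70.1% of them, and cluster 1 gave 44.0%, 57.9%, 15.5% and 10.7%. Slc43a2, Slc1a3 and Slc7a7 were higher in CD45-high cells and Slc6a15 and Slc6a20a were lower. That is 5 of 42 genes at an adjusted p of 0.05 (limma with the brain as a block, Benjamini-Hochberg over 14044 genes), against 9.88% of all genes, so near the background share. By direction, 3 were higher, against 8.07% of all genes, and 2 lower, against 1.81%. The median log2 difference was -0.01 for the 42 genes and -0.04 for all genes. A brain's high and low cells come from the same animal, and nothing in the sources says more of the brains' origin, so n is 4 brains.

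Slc43a2 had 0.175, 0.350, 0.841 and 0.352 per 10000 UMIs in CD45-high cells of the 4 brains and 0.0768, 0.0310, 0.294 and 0.175 in CD45-low cells. It was higher in each brain, although the ranges over brains overlapped. The mean log2 difference was 1.10 (SE 0.23, limma adjusted p = 0.0234, n = 4). Slc1a3 had 0.310, 0.226, 0.295 and 0.172 in high and 0.145, 0.111, 0.0467 and 0.0493 in low cells, with no overlap (0.92, SE 0.20, limma adjusted p = 0.028). Slc7a7 had 0.0507, 0.145, 0.135 and 0.184 against 0.0276, 0.0253, 0.0359 and 0.0337, also with no overlap (0.77, SE 0.19, limma adjusted p = 0.0395).

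Slc6a15 had 0.00996, 0, 0.00600 and 0.0107 in high cells and 0.185, 0.182, 0.0450 and 0.0306 in low cells (-0.89, SE 0.23, limma adjusted p = 0.0484). Slc6a20a had 0.203, 0.0493, 0.0980 and 0.104 against 0.678, 0.532, 0.344 and 0.118 (-1.18, SE 0.30, limma adjusted p = 0.0487). Both were lower in all 4 brains, with the largest differences in the brains with hashtags 1 and 2, where cluster 1 was the larger share of low cells. The brains' values overlapped for Slc6a20a and not for Slc6a15. Slc7a10, with 0.303, 0.232, 0.0872 and 0.176 against 0.933, 0.946, 0.196 and 0.222, was just outside the threshold (-0.97, SE 0.26, limma adjusted p = 0.0532). Further from it were Slc43a3, with 0.128, 0.0503, 0.0977 and 0.0128 against 0.0492, 0.0103, 0.00449 and 0.00973 (0.50, SE 0.16, limma adjusted p = 0.0883), and Slc6a17, with 0.0246, 0.0315, 0.0267 and 0.0245 against 0.238, 0.302, 0.0455 and 0.0487 (-0.88, SE 0.27, limma adjusted p = 0.0888).

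These calls were not steady. Without the brain with hashtag 3, limma called 0 of the 42 genes (12 had an unadjusted p under 0.05); without that with hashtag 1, 2 were, without that with hashtag 2, 3 and without that with hashtag 4, 6. Leaving out the brain with hashtag 1 ended the calls of Slc1a3, Slc6a15 and Slc6a20a, with hashtag 2 those of Slc43a2, Slc7a7, Slc6a15 and Slc6a20a, and with hashtag 4 those of Slc1a3 and Slc7a7. With a pseudocount of 1, without a gene filter, or in the cells with 80% of own hashtag counts, 0 of the 5 were called, and without the brain as a block Slc1a3 and Slc7a7 were. Against low cells of the Rhox5-led clusters alone, an added comparison, Slc1a3 was still called (1.25, limma adjusted p = 0.0304), while Slc43a2 (0.96, 0.105), Slc7a7 (0.82, 0.0902), Slc6a15 (-0.54, 0.234) and Slc6a20a (-0.81, 0.368) were not. Slc6a6, named here after its values were seen, was called there as well (0.94, limma adjusted p = 0.0392), while against all low cells its difference was -0.10 (limma adjusted p = 0.843). Slc1a3 and Slc6a6 were the 2 of the 42 genes called against low cells of the Rhox5-led clusters. Of all genes called there, 92.5% were higher, and the share of all genes called is not given here. Against low cells of cluster 1 alone, 20 of the 42 genes were called. So were 6069 of all genes, of which 14044 were seen in at least 20 cells, so calls were common among all genes too.

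**Figure D5:**
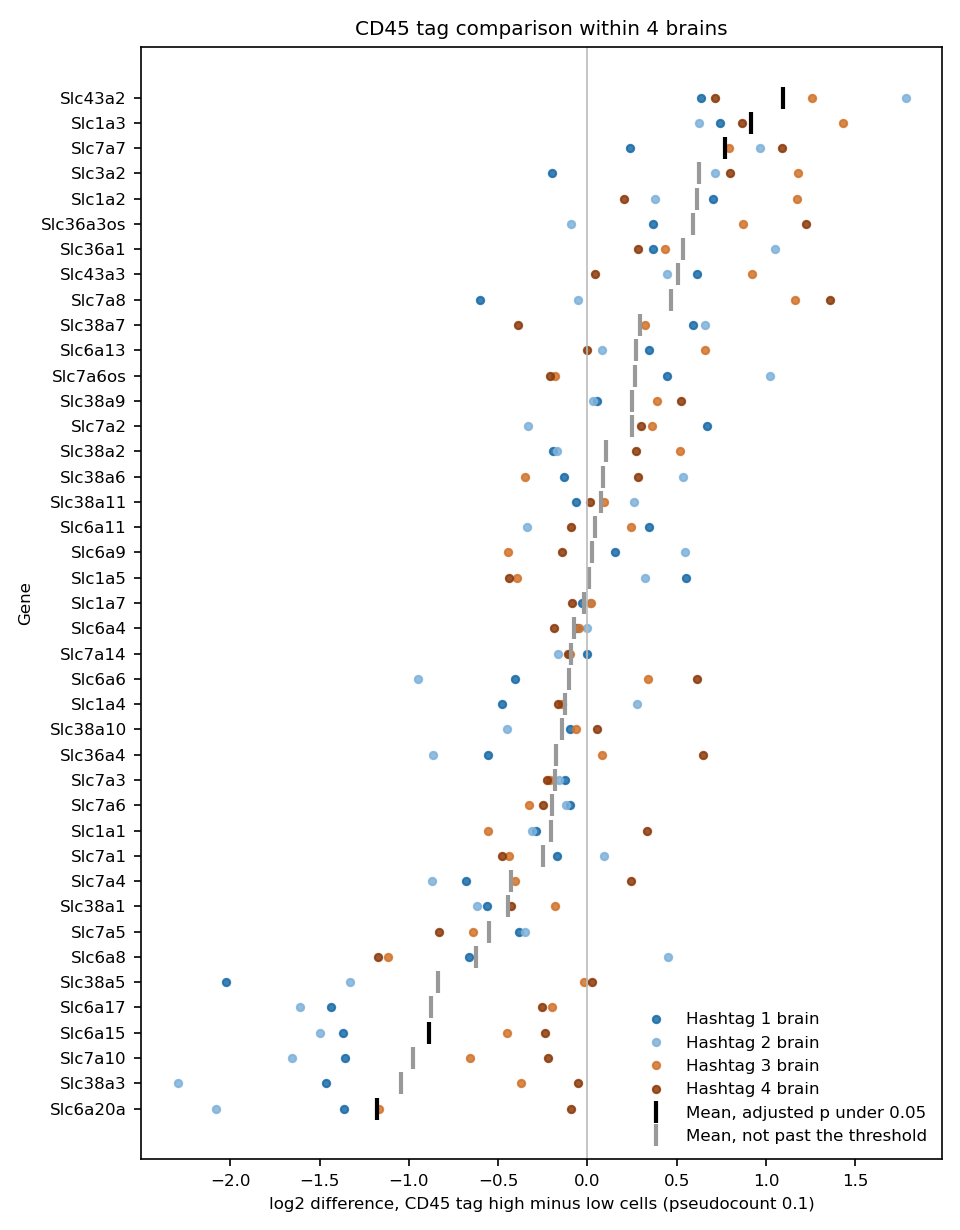
log2 difference of CD45-high minus CD45-low cells for 41 of the 42 genes (rows), on the log2(mean + 0.1) scale; circles are the 4 brains and the upright bar is their mean, black for the 5 genes past the threshold and grey for the rest. Slc43a2, Slc1a3 and Slc7a7 lie right of 0 in all 4 brains, and Slc6a15 and Slc6a20a left of it.

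Other genes of amino acid use were read with the same tests. Of 25 measured genes of the amino acid stress response, which Atf4 drives, 8 were called higher and 0 lower in the Rhox5-led clusters than in cluster 1, against 4.94% and 2.21% of all genes. Asns, which makes asparagine, had 0.487, 0.457, 0.941 and 1.06 per 10000 UMIs against 0.0828, 0.105, 0.182 and 0.244 (difference 1.69). The serine synthesis genes Psat1 (1.54), Phgdh (1.14) and Psph (1.3), the mitochondrial serine enzyme Shmt2 (1.54), the translation inhibitor Eif4ebp1 (1.86), and Cebpb (1.24) and Nupr1 (1.11) were the others. The median difference of the 25 genes was 0.74, against 0.04 for all genes. The endothelial-like cluster was above the choroid plexus-like one in 6 of the 25 genes, among them Ddit4 (-1.74) and Cebpg (-1.29), and below it in 1, Vegfa (1.23), against 9.1% and 4.05% of all genes. Clusters 3 and 6 were below the Rhox5-led clusters in 4 of the 25 genes (Asns, Psat1, Phgdh and Psph) and above them in 2 (Ddit3 and Cebpb), against 2.93% and 6.4% of all genes; the latter count is near that share.

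Of 29 measured enzymes of amino acid metabolism, 4 were called higher in the Rhox5-led clusters than in cluster 1 and 0 lower, against 4.94% and 2.21% of all genes. Gatm, the first enzyme of creatine synthesis, had 0.476, 0.276, 0.633 and 0.808 there against 0.139, 0.0612, 0.156 and 0.271 (difference 1.32), and Gamt, the second, differed by 1.08. Endothelial-like cells held more Gatm than choroid plexus-like cells, with 1.64, 1.65, 0.980 and 1.29, and 3 enzymes were called in that direction and 1 in the other, against 9.1% and 4.05% of all genes. Glutamine synthetase, Glul, was above smooth muscle-like cells in the endothelial-like cluster (difference 1.64), where 3 enzymes were called higher and 1 lower, against 4.34% and 1.12% of all genes. Clusters 3 and 6 had 1 enzyme called higher than the Rhox5-led clusters and 2 lower, or 10.3% in all against 9.33% of all genes; the arginase gene Arg1 had 0.0499, 0.420, 1.58 and 0.226 against 0, 0, 0.0101 and 0.00724 (difference 2.12).

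Of 14 measured carriers of other families, the lysosomal histidine and peptide carrier Slc15a3 had 0.552, 2.00, 2.12 and 1.89 per 10000 UMIs in clusters 3 and 6, against 0.126, 0.124, 0.0475 and 0.0575 in the Rhox5-led clusters (difference 3.08). In the CD45 tag test 2 of the 14 rose and 1 fell, against 8.07% and 1.81% of all genes: Slc15a3 (3.04, limma adjusted p = 0.000253), Slc15a4 (0.77, limma adjusted p = 0.0282) and the mitochondrial aspartate-glutamate carrier Slc25a13 (-0.93, limma adjusted p = 0.0211). In that test 2 of the 25 stress response genes rose and 0 fell, close to the share of all genes, Cebpb (1.37, limma adjusted p = 0.013) and Ddit3 (0.97, limma adjusted p = 0.0276). Of the 29 enzymes 2 rose and 0 fell, again close to that share, Ass1 (1.12, limma adjusted p = 0.00884) and Arg2 (0.60, limma adjusted p = 0.00875). Of 18 genes of amino acid sensing by mTORC1, 1 rose and 1 fell, against the same shares: the lysosomal anchor gene Lamtor4 rose (0.84, limma adjusted p = 0.0323) and the GTPase gene Rragd fell (-1.21, limma adjusted p = 0.0406). Between clusters 1 and 4, 3 of the 18 were called (13.2% of all genes), between clusters 4 and 9 1 (5.45%), between clusters 3 and 6 and the Rhox5-led clusters 1 (9.33%), and between the Rhox5-led clusters and cluster 1 0 (7.15%).

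Another 15 genes had highest cluster levels between 0.0160 per 10000 UMIs (the serotonin transporter Slc6a4) and 0.555 (Slc38a10). They are the amino acid exchanger Slc1a4, the glutamate carrier Slc1a7, Slc6a4, the glycine transporter Slc6a9, the GABA carrier Slc6a13, the cationic amino acid carriers Slc7a2 and Slc7a3, Slc7a14, Slc7a6os, the proton-coupled carriers Slc36a1 and Slc36a4, and Slc38a6, Slc38a7, Slc38a9 and Slc38a10.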

How the data were processed

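Gene values were deposited on a natural log scale, as ln(1 + UMIs per 10000 UMIs of a cell), by the authors; the submitters' processing notes name Cell Ranger 2.1, Seurat 2.3.4 and mm10, without roles. How cells were filtered, whether doublets were removed and whether strand was used is not given in the sources used here. All deposited cells were kept, without a search for doublets. The deposited tag and hashtag counts were made by the authors, who name CITE-seq-Count 1.3.4 for the barcode table. The deposited hashtag class and cluster numbers are the authors' own. The deposited mitochondrial fraction is the authors' value per cell. Another 11 columns of the cell table were not used.

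Whole UMI counts were computed back from these values: 99.8% of nonzero values were whole within 0.01. Values were averaged per brain and cluster with at least 20 cells, or at least 10 when only cells with 80% own hashtag counts were used. With those cells the comparison of clusters 1 and 4 had 4 brains. Both comparisons with the Rhox5-led clusters then had 3 brains, and that of clusters 4 and 9 had 2. A cluster difference was called at a mean log2(mean + 0.1) difference of at least 1 with no overlap over brains. The CD45 tag test used limma 3.58.1 (intensity trend, brain as block; two-sided) in R 4.3.3 on genes above 0 in at least 20 cells; other steps used Python 3.11.15. In data simulated for that test, 93.2% of 103 genes changed by 2 and 29.9% of 97 genes changed by 1 on the log2 scale were recovered, with 0.0144% of unchanged genes. Tag-high and tag-low cells of a brain come from 1 animal; their deviations correlated by 0.16, 0.20, 0.23 and 0.24.

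The genes, lists and rules were chosen with earlier results of these data known. Full values are given for genes at 4 times the median cluster, genes with a cluster difference of at least 2, the 8 lowest adjusted p-values, and Slc3a2 with its light chains; Slc3a1 was not analysed here, and the values of 1 other gene are not reported here. Other genes named are called ones or were chosen after their values were seen. Alternatives were the pseudocount, summed counts, gene filters, tag minimum, own-hashtag share, size factors, the block, and leaving out each brain.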

Additional observations from a re-analysis of the deposited data

How the results depend on the processing

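With 4 brains and few UMIs per gene, single UMIs and single brains decide many values; where the cause of a change is not given by the construction of the alternative, it was not tested. Genes at 4 times the median cluster with at least 20 UMIs numbered 14, 14 with summed counts and 17 in cells with 80% own hashtag counts. With summed counts Slc7a5 (3.49 times) was no longer among them and Slc7a8 (4.48 times) was. Slc7a5 was not among the 17 either.

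A pseudocount of 1, which by construction shrinks differences of low genes, left 3 genes (0 higher, 3 lower; 350 of all genes) between clusters 1 and 4, 0 (0 and 0; 224) between the Rhox5-led clusters and cluster 1, 0 (0 and 0; 207) between clusters 3 and 6 and the Rhox5-led ones, and 2 (2 higher; 129) between clusters 4 and 9. With 0.01 all genes called numbered 3257, 2288, 2367 and 1543; 4 genes were then higher in the Rhox5-led clusters, and 5 were called (2 lower) in clusters 3 and 6. Summed counts gave 1 higher gene and 1562 of all genes in the Rhox5-led comparison, and the 80% hashtag cells 1 higher there, 0 lower in clusters 3 and 6, and 1257 of all genes for clusters 4 and 9. The filter at 5% of cells left 1 gene higher in clusters 3 and 6. Leaving out 1 brain gave 2 to 5 genes lower and 924 to 1567 of all genes in the Rhox5-led comparison, 2 to 5 genes called (1 to 4 higher) in clusters 3 and 6, and 0 to 2 lower and 871 to 1324 of all genes for clusters 4 and 9.

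In the CD45 tag test (5 genes, 3 higher and 2 lower; 1388 of all genes), a pseudocount of 1 gave 0 (0 and 0; 882; 16 genes with an unadjusted limma p under 0.05) and no gene filter 0 (0 and 0; 899; 17 genes). Summed counts gave 1 (1 higher, 0 lower), with 97.9% of all called genes higher against 81.7%. The 5% filter gave 3 (1 lower), the 80% hashtag cells 2 (0 higher; 704), and a tag minimum of 1000 or size factors 1 lower. Without the replicate block 2 genes were called (0 lower). Added after the data were seen, tag class and cluster in line gave 9 (6 lower; 2170), low cells of cluster 1 alone 20 (12 higher, 8 lower; 6069) and low cells of clusters 0, 2 and 7 alone 2 (0 lower). Leaving out 1 brain gave 0 to 6 genes, 0 to 2 higher, 0 to 5 lower, and of all genes 837 without hashtag 3, 886 without hashtag 1 and at most 1513. The 5 called genes kept their direction in each of these alternatives that tested them (the 5% filter left out some). Of the genes not called there, Slc6a6 (-0.10) turned to 0.0022 with summed UMIs, 0.022 with a tag minimum of 1000, 0.18 without the brain with hashtag 2, 1.54 against low cells of cluster 1 alone and 0.94 against those of clusters 0, 2 and 7. Against low cells of cluster 1 alone Slc7a5 turned to 0.32 and Slc7a8 to -0.25; the cause was not tested. The 5 adjusted p-values ran from 9.93e-05 to 0.503 over the alternatives.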

Other observations

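Cluster 3 could be divided by marker UMIs in the same way as cluster 8: 70 cells had more UMIs of the 7 microglia markers and 332 had more of the 6 monocyte and macrophage markers, with 2 equal. The division was chosen after the data were seen. Slc3a2 had 4.32 per 10000 UMIs (95% exact Poisson interval 3.6 to 5.14) in the former and 2.60 (2.34 to 2.88) in the latter. Slc1a3 had 0.647 (0.389 to 1.01) against 0.224 (0.153 to 0.316). Slc43a2, with 0.511 (0.286 to 0.842) against 0.755 (0.620 to 0.912), did not part them by these intervals. All 32 Slc1a3 UMIs of the 332 cells came from the brains with hashtags 3 and 4, where 307 of those cells were, and the intervals cover counting error only.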
